A study of Sus scrofa with 6 samples.

Results

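Mitochondria carry an inner membrane that is folded into cristae, the pockets in which the respiratory chain and the ATP synthase sit. The mitochondrial contact site and cristae organizing system (MICOS) holds the narrow necks of these pockets open, the dynamin-like GTPases OPA1, MFN1 and MFN2 fuse mitochondria, and DNM1L and its adaptors divide them. In skeletal muscle, whose fibres contain a network of elongated mitochondria, these proteins shape the organelle that supplies ATP for contraction. The genes described here were the 10 named cristae, fusion and fission genes, found by their symbol in the deposited table. Of the 10 symbols, 7 had a row among the 25322 genes of the table: the MICOS genes IMMT, CHCHD3, APOO and APOOL, the fusion genes OPA1 and MFN2, and the fission gene FIS1. CHCHD6, MFN1 and DNM1L matched no row by symbol and were not analysed here. All 7 passed the filter on low counts, which left 13209 genes for testing.

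Where a symbol had several rows, the row with the highest summed count was kept. This touched APOOL alone: the row kept held 2445 counts over the 6 libraries and the row set aside held 115. Between its rows, APOOL was thus chosen by summed counts and not by the breed difference. The genes were, however, proposed with results of the same breed comparison known, so the counts of calls below describe these genes and are not independent evidence about them.

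The libraries came from longissimus dorsi, the long back muscle, of 3 samples labelled Wei and 3 labelled Yorkshire, both of them pig breeds. Wei pigs were fed freely and slaughtered at 90 kg, and the Yorkshire pigs are described as kept in similar conditions, with no slaughter weight given. Sex and age are not given, and nothing in the labels says that each library was a separate animal. Each p-value therefore reflects variation among the 6 libraries, which may be technical in part. Group membership follows the breed field of the labels; the library codes (YH for Wei, LWH for Yorkshire) are not explained there, and every direction below rests on that field.

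Total counts ranged from 15285197 to 22570075 in Wei libraries and from 17876646 to 27096747 in Yorkshire libraries. Genes of the mitochondrial genome took 6.43% to 9.17% of counts in Wei and 5.38% to 10.18% in Yorkshire. Skeletal muscle markers were abundant in every library, with summed levels of 93964 to 167437 CPM (counts scaled to a common library size) in Wei and 142214 to 163144 CPM in Yorkshire, the lowest being Wei replicate 1. Of 9 tested muscle markers, 0 were called by edgeR, DESeq2 or limma voom, and 0 had an unadjusted edgeR p under 0.05. Their log2 fold changes were not uniform, with 3 of the 9 positive. They ran from -0.47 for the myosin gene MYH2 to 0.48 for the myosin gene MYH7, both named after their values were seen. MYH2 values did not overlap between the breeds and those of MYH7 did. The part of fibre types in the values below was not tested. Wei replicate 2 held 6901 counts of Y chromosome genes, against at most 14 in any other library. By these counts it differed in sex from Wei replicates 1 and 3, so the Wei libraries were not all repeats of the same animal. Yorkshire replicate 3 stood apart in immune markers: summed lymphocyte markers were 8.40 to 8.97 CPM in Wei, against 10.7, 14.0 and 44.2 CPM in Yorkshire replicates 1 to 3, and summed macrophage markers were 43.5 to 50.8 CPM in Wei, against 40.7, 49.9 and 176 CPM in Yorkshire replicates 1 to 3. In bulk muscle, fewer cells of a type and less RNA per cell cannot be told apart.

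APOOL was much lower in Wei muscle, by 3.24-fold, and IMMT was higher, by 1.49-fold. OPA1 and MFN2 had values 1.29 and 1.26 times those of Yorkshire without passing the test, and CHCHD3, APOO and FIS1 had overlapping values in the breeds. By edgeR's quasi-likelihood test with Benjamini-Hochberg adjustment over all tested genes, 1 of the 7 genes was called higher and 1 lower in Wei at an adjusted p under 0.05. Among all tested genes 5.08% were called, 2.73% higher and 2.35% lower. Breed values did not overlap for 4 of the 7, 3 of them higher in Wei (IMMT, OPA1 and MFN2) and 1 lower (APOOL), where 29.6% of all tested genes did not overlap (14.3% higher and 15.3% lower). A positive log2 fold change was found for 4 of the 7 and for 47.8% of all tested genes, and the median was 0.25 for the 7, against -0.02 for all tested genes.

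**Figure D1:**
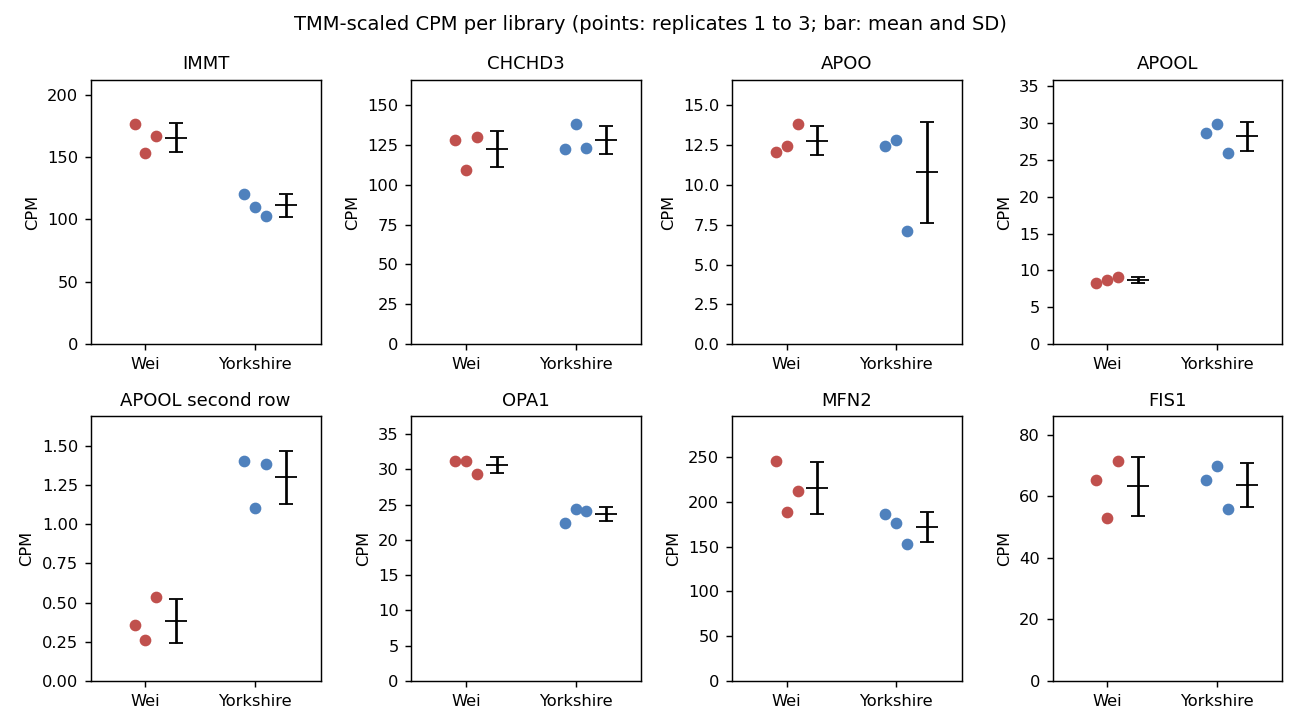
Scaled level (CPM) of each gene in each library, Wei (red) left of Yorkshire (blue); points are replicates 1 to 3 in order, and the bar beside them is the mean and SD of 3 libraries. The 3 Wei points of APOOL lie between 8.28 and 9.10 CPM, all below the Yorkshire points at 25.9 to 29.9 CPM, and the second row with the APOOL symbol shows the same order at a lower level.

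APOOL (MIC27) encodes an apolipoprotein-like MICOS subunit of the inner membrane that binds cardiolipin, the phospholipid typical of that membrane. Its row (ENSSSCG00000012459, X chromosome, 78031562 to 78104740 in build Sscrofa10.2) had 140, 133 and 186 counts in Wei replicates 1 to 3, against 734, 540 and 712 in Yorkshire replicates 1 to 3. After scaling these were 8.28, 8.65 and 9.10 CPM in Wei, against 28.7, 29.9 and 25.9 CPM in Yorkshire. The highest Wei library stood far below the lowest Yorkshire library, and the spread within each breed was small: 8.68 ± 0.41 CPM (SD, n = 3) in Wei and 28.2 ± 2.01 CPM (SD, n = 3) in Yorkshire. The log2 fold change was -1.70 ± 0.13 (SE; edgeR adjusted p = 0.00238). Of all tested genes, 1.18% had a log2 fold change at or below this one. Its p ranked 4 of 13209 tested genes, and 1 among the 426 tested genes of the X chromosome. With each library left out in turn APOOL passed the threshold in all 6 fits, with log2 fold changes between -1.75 and -1.65 and adjusted p between 0.00796 and 0.0190 in the same test. Wei replicate 2, the library with Y chromosome counts, lay between the other two Wei libraries, and without it or without Yorkshire replicate 3 the call held. The part of sex or of immune cells in the APOOL difference was not tested.

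The second row with the symbol APOOL (ENSSSCG00000024291, X chromosome, 78284663 to 78301669) lies at higher coordinates and is listed as a gene of its own. It had 6, 4 and 11 counts in Wei replicates 1 to 3, against 36, 20 and 38 in Yorkshire replicates 1 to 3. The breeds did not overlap in CPM here either, at 0.38 ± 0.14 CPM in Wei and 1.30 ± 0.17 CPM in Yorkshire (SD, n = 3 each). The log2 fold change was -1.73 ± 0.37 (SE; edgeR adjusted p = 0.0391), and with any 1 library left out it missed the threshold, with adjusted p between 0.0661 and 0.112. As a share of the counts of both rows, this row took 4.11%, 2.92% and 5.58% in Wei and 4.68%, 3.57% and 5.07% in Yorkshire. The exact (Clopper-Pearson) 95% intervals of these shares overlapped, from 0.80% at the lowest bound to 9.77% at the highest. Whether both rows are parts of 1 gene, or near-identical copies that shared reads, was not tested.

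Around APOOL, other tested genes were examined after its values had been seen. Within 5 Mb there were 8 further tested rows, of which edgeR called 0 (2 had an unadjusted p under 0.05), DESeq2 called 1 lower and limma voom called 0. A negative log2 fold change was found for 7 of the 8, with a median of -0.62, while 47.8% of all tested genes had a positive one. The rows are not all separate genes by name, since SH3BGRL recurs among them. Several had few counts, such as RPS6KA6 with 11, 3 and 2 in Wei replicates 1 to 3, against 23, 2 and 13 in Yorkshire replicates 1 to 3. CHM, which encodes a Rab escort protein, came nearest the threshold with 202, 199 and 221 counts in Wei replicates 1 to 3, against 452, 370 and 458 in Yorkshire replicates 1 to 3, and a log2 fold change of -0.62 ± 0.15 (SE; adjusted p = 0.0518). ZNF711, a zinc finger gene next to the second APOOL row, had a log2 fold change of -0.62 ± 0.31 (adjusted p = 0.263). The log2 fold changes of both APOOL rows were more than 0.8 below that of every neighbour. Over the X chromosome, 11 of 426 tested genes were higher and 20 lower in Wei, or 7.28% called, against 5.08% of all tested genes, with a median log2 fold change of -0.04.

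**Figure D2:**
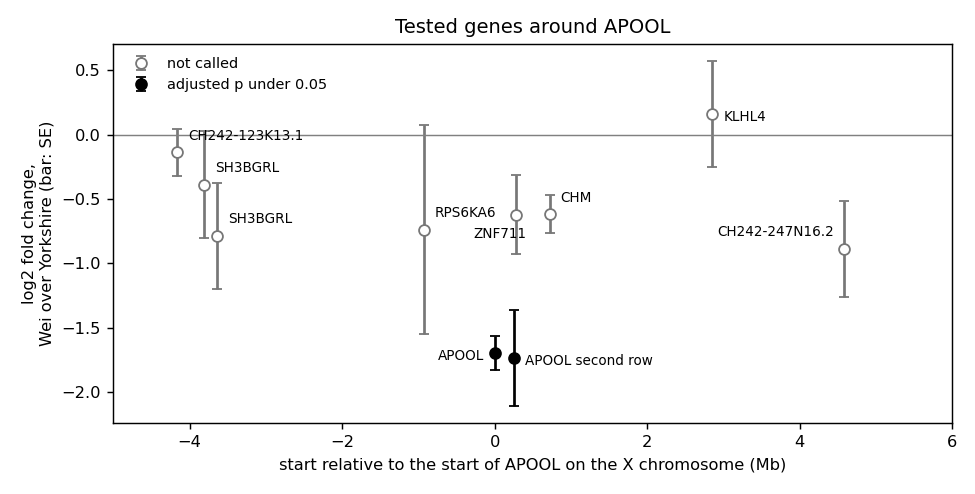
Log2 fold change (Wei over Yorkshire) with its SE for each tested gene within 5 Mb of the start of APOOL, against distance on the X chromosome in Mb; filled points have an adjusted p under 0.05. Both APOOL rows lie near -1.7, while the other 8 rows lie between -0.89 and 0.16.

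APOO (MIC26), the paralogue of APOOL and also a MICOS subunit, is X-linked too (ENSSSCG00000012174, 21323359 to 21442127). It had 12.1, 12.5 and 13.8 CPM in Wei replicates 1 to 3, against 12.4, 12.8 and 7.14 CPM in Yorkshire replicates 1 to 3. The breeds overlapped, and Yorkshire replicate 3, the library with high immune markers, was low on its own. The log2 fold change was 0.25 ± 0.23 (SE; edgeR adjusted p = 0.544), with a 95% interval from -0.27 to 0.77, and without Yorkshire replicate 3 it was 0.02. The part of those immune cells in the APOO value was not tested.

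Within a library, the balance of the paralogues went opposite ways in the breeds. The log2 ratio of APOOL to APOO counts was -0.54, -0.53 and -0.60 in Wei replicates 1 to 3, against 1.21, 1.22 and 1.86 in Yorkshire replicates 1 to 3. Such a ratio does not depend on how libraries are scaled. On the scale of fragments per length and depth (FPKM), which allows levels of different genes to be compared, APOOL stood at 3.85 ± 0.22 FPKM and APOO at 8.11 ± 0.39 FPKM in Wei, while APOOL stood at 12.7 ± 0.74 FPKM and APOO at 6.89 ± 1.79 FPKM in Yorkshire (SD, n = 3). Per length, then, APOO was the more abundant transcript in each Wei library and APOOL in each Yorkshire library. With 3 libraries against 3 an exact permutation test cannot give a two-sided p below 0.10, so the ratios here and below are given without a test; the pairs other than APOOL and APOO were chosen after the values had been seen.

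IMMT (mitofilin, MIC60) is the core MICOS subunit on which the complex assembles. Its row (ENSSSCG00000024564, chromosome 3, 61449509 to 61488277) had 177, 154 and 167 CPM in Wei replicates 1 to 3, against 121, 110 and 103 CPM in Yorkshire replicates 1 to 3. All Wei libraries lay above all Yorkshire libraries, at 166 ± 11.6 CPM in Wei and 111 ± 8.99 CPM in Yorkshire (SD, n = 3 each). The log2 fold change was 0.57 ± 0.12 (SE; edgeR adjusted p = 0.0393), and 8.93% of all tested genes had one at least as high. The call was narrow: with each library left out in turn the adjusted p was between 0.0598 and 0.137 and IMMT was never called, while the log2 fold change stayed between 0.53 and 0.64.

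CHCHD3 (MIC19) links IMMT to the outer membrane side of the complex. Its row (ENSSSCG00000016545, chromosome 18, 17086302 to 17410939) had 128, 109 and 130 CPM in Wei replicates 1 to 3, against 123, 138 and 123 CPM in Yorkshire replicates 1 to 3. The breeds overlapped, and the log2 fold change was -0.06 ± 0.13 (SE) with a 95% interval from -0.35 to 0.23. Relative to IMMT in the same library, CHCHD3 was lower in Wei: the log2 ratio of their counts was -0.47, -0.49 and -0.36 in Wei replicates 1 to 3, against 0.02, 0.33 and 0.26 in Yorkshire replicates 1 to 3, with no overlap. The log2 ratio of APOOL to IMMT was -4.25 ± 0.14 in Wei and -1.98 ± 0.10 in Yorkshire (SD, n = 3 each). That of APOO to IMMT overlapped, at -3.69 ± 0.15 in Wei and -3.41 ± 0.39 in Yorkshire (SD, n = 3 each). The APOO ratio was -3.87, -3.62 and -3.59 in Wei replicates 1 to 3, against -3.28, -3.10 and -3.85 in Yorkshire replicates 1 to 3. Its overlap thus rested on Yorkshire replicate 3 alone, so APOO is not set apart from APOOL and CHCHD3 here. IMMT itself was higher in Wei, so a gene of unchanged CPM, such as CHCHD3, comes out lower in Wei on this measure.

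**Figure D3:**
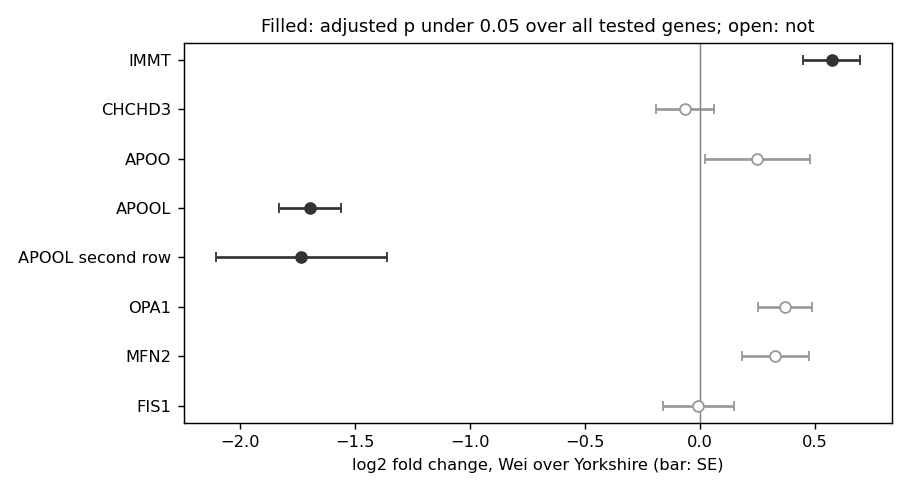
Log2 fold change (Wei over Yorkshire) with its SE for the 7 genes and the second APOOL row, from the fit over all tested genes; filled points have an adjusted p under 0.05. APOOL at -1.70 and IMMT at 0.57 are called, OPA1 and MFN2 lie to the right of 0 without a call, and CHCHD3 and FIS1 lie at about 0.

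OPA1, the inner membrane GTPase that fuses inner membranes and tightens cristae necks, had 31.2, 31.3 and 29.4 CPM in Wei replicates 1 to 3, against 22.5, 24.4 and 24.1 CPM in Yorkshire replicates 1 to 3. Its row (ENSSSCG00000011822, chromosome 13, 140194249 to 140230347) thus had all Wei values above all Yorkshire values. The log2 fold change was 0.37 ± 0.12 (SE), with an edgeR adjusted p of 0.106 (0.0126 before adjustment), which is no call. An unadjusted p under 0.05 was found for 23.3% of all tested genes.

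MFN2, an outer membrane GTPase that tethers and fuses mitochondria and also links them to the endoplasmic reticulum, was the most abundant of the 7 in CPM. It had 246, 189 and 212 CPM in Wei replicates 1 to 3, against 186, 176 and 153 CPM in Yorkshire replicates 1 to 3 (ENSSSCG00000003434, chromosome 6, 65937788 to 66016364). The lowest Wei library, replicate 2, exceeded the highest Yorkshire library by less than 3 CPM. The log2 fold change was 0.33 ± 0.15 (SE; edgeR adjusted p = 0.219), with a 95% interval from -0.0042 to 0.66.

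FIS1, an outer membrane protein first described in yeast as a docking site for the division machinery, had 65.2, 52.8 and 71.6 CPM in Wei replicates 1 to 3, against 65.1, 69.7 and 55.7 CPM in Yorkshire replicates 1 to 3. Its row (ENSSSCG00000027757) lies on the unplaced scaffold GL896338.2, 43698 to 47176. The breeds overlapped throughout, with a log2 fold change of -0.01 ± 0.15 (SE) and a 95% interval from -0.36 to 0.34. Within a library the log2 ratio of MFN2 to FIS1 counts was 1.92, 1.84 and 1.56 in Wei replicates 1 to 3, against 1.51, 1.34 and 1.45 in Yorkshire replicates 1 to 3, without overlap. That of OPA1 to FIS1 overlapped, at -1.03 ± 0.27 in Wei and -1.42 ± 0.18 in Yorkshire (SD, n = 3 each).

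Some libraries were low in several of the genes at once. Wei replicate 2 had the lowest Wei CPM of IMMT, CHCHD3, MFN2 and FIS1. Yorkshire replicate 3 had the lowest Yorkshire CPM of IMMT, APOO, APOOL, MFN2 and FIS1.

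Per gene length, FIS1 and CHCHD3 stood highest. FIS1 had 90.5 ± 15.1 FPKM in Wei and 92.0 ± 8.43 FPKM in Yorkshire, and CHCHD3 had 77.6 ± 11.4 FPKM in Wei and 82.1 ± 7.73 FPKM in Yorkshire (SD, n = 3 each). The ranges of these neighbours overlapped in each breed, while within a library FIS1 was above CHCHD3 in 6 of 6. IMMT followed with 74.9 ± 11.8 FPKM in Wei and 50.7 ± 0.94 FPKM in Yorkshire, within the range of CHCHD3 in Wei but below it in Yorkshire. MFN2 had 46.9 ± 10.6 FPKM in Wei and 37.5 ± 1.76 FPKM in Yorkshire, and OPA1 had 14.7 ± 1.92 FPKM in Wei and 11.5 ± 1.15 FPKM in Yorkshire. In Yorkshire APOOL, at 12.1 to 13.5 FPKM, overlapped the upper end of OPA1, at 10.22 to 12.42 FPKM, and in Wei APOOL was the lowest of the 7.

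**Figure D4:**
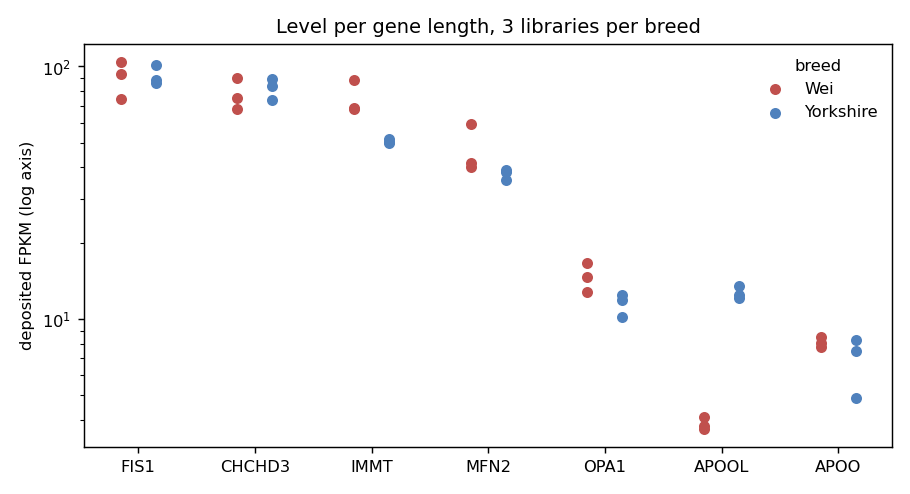
Deposited FPKM on a log axis for the 7 genes in order of mean level, with the 3 Wei libraries (red) left of the 3 Yorkshire libraries (blue). FIS1, CHCHD3 and IMMT are the highest, and only for APOOL do the Wei points lie wholly below the Yorkshire points.

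The mitochondrial content of the samples was described with 17 markers, among them citrate synthase, porins and import proteins, of which 16 were tested. Of these, 1 passed the test, VDAC2, an outer membrane porin, at 281 ± 6.55 CPM in Wei and 190 ± 1.31 CPM in Yorkshire (SD, n = 3 each), a log2 fold change of 0.57 ± 0.11 (SE; edgeR adjusted p = 0.0333). Among all tested genes 5.08% were called. The list median was 0.25, with 12 of 16 positive, against 47.8% of all tested genes. Negative were TOMM20 (-0.34), TOMM22 (-0.33), TIMM50 (-0.28) and VDAC3 (-0.09), named after their values were seen. The summed level was 3043 to 3418 CPM in Wei and 2485 to 2958 CPM in Yorkshire, without overlap. VDAC1 and SLC25A3, the most abundant of the markers, weigh most in this sum. VDAC2 missed the threshold with any library left out, at adjusted p between 0.0644 and 0.121. Set against this sum in the same library, a measure added after the values were seen, IMMT was higher in Wei by 0.34 on the log2 scale and APOOL was -1.93, both without overlap, while CHCHD3 (-0.30) and FIS1 (-0.25) were lower without overlap. OPA1 (0.14), MFN2 (0.09) and APOO (0.06) overlapped between the breeds on this measure. The sum was itself higher in Wei, so a gene of unchanged CPM comes out below 0 here. In CPM, CHCHD3 and FIS1 had log2 fold changes of -0.06 and -0.01, with overlapping breeds. The share of all tested genes without overlap on this measure was not computed.

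The other genes of cristae and mitochondrial dynamics were taken from lists of 67 genes in 7 groups, of which 60 were tested. PTPMT1, a phosphatase of cardiolipin synthesis, rose in Wei and TRAK2, an adaptor that couples mitochondria to motor proteins, fell, and the other 58 were not called by edgeR. DESeq2 called 3 of the 60 higher and 1 lower, and limma voom 2 higher and 1 lower. The share called was 3.33%, against 5.08% of all tested genes, and the median log2 fold change was 0.04. PTPMT1 had 9.88, 7.995 and 9.84 CPM in Wei replicates 1 to 3, against 5.31, 5.14 and 3.75 CPM in Yorkshire replicates 1 to 3, a log2 fold change of 0.97 ± 0.20 (SE; edgeR adjusted p = 0.0359). TRAK2 had 11.7, 13.7 and 14.8 CPM in Wei replicates 1 to 3, against 23.9, 25.1 and 21.0 CPM in Yorkshire replicates 1 to 3, a log2 fold change of -0.80 ± 0.15 (adjusted p = 0.0292). No value of either gene overlapped between the breeds. PTPMT1 passed with 1 of the 6 libraries left out (Wei replicate 2) and TRAK2 with none, at adjusted p up to 0.105 and 0.109 in the same test.

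By group, 0 of the 7 tested partners of MICOS and its bridge to the outer membrane were called by edgeR, DESeq2 or limma voom, with 1 at an unadjusted p under 0.05 and a median log2 fold change of -0.12. MICOS10, a small core subunit listed as MINOS1, had 78.2 ± 5.47 CPM in Wei and 88.3 ± 17.7 CPM in Yorkshire, and MTX2, an outer membrane import protein, had 25.7 ± 3.24 CPM in Wei and 22.7 ± 2.93 CPM in Yorkshire (SD, n = 3 each). Among 11 genes of OPA1 processing and inner membrane scaffolds 0 were called by edgeR and 1 each by DESeq2 and limma voom, 1 had an unadjusted p under 0.05 and 9 had positive changes, with a median of 0.13. CHCHD10, an intermembrane space protein, had 214 ± 30.6 CPM in Wei and 127 ± 25.8 CPM in Yorkshire (SD, n = 3 each), a log2 fold change of 0.76 ± 0.18 (SE; edgeR adjusted p = 0.0524), and its relative CHCHD2 had one of 0.22 ± 0.14. DESeq2 and limma voom called CHCHD10, at adjusted p of 0.00465 and 0.0498.

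In the list of 6 ATP synthase subunits linked to its dimers, 0 were called by edgeR, DESeq2 or limma voom and 0 had an unadjusted edgeR p under 0.05, with ATP5PB at 263 ± 33.7 CPM in Wei and 237 ± 33.6 CPM in Yorkshire (SD, n = 3 each). Cardiolipin and phosphatidylethanolamine synthesis had PTPMT1 as its 1 edgeR call among 9 tested genes (3 had an unadjusted p under 0.05), 2 calls higher by DESeq2 and 1 by limma voom, a median of 0.07 and a range of log2 fold changes from -0.47 to 1.12. Fission adaptors and regulators had 0 calls of 12 and fusion regulators 0 of 9, by edgeR, DESeq2 and limma voom alike, with 0 at an unadjusted edgeR p under 0.05 in either, and medians of -0.01 and 0.08. In those lists DNM2, a dynamin, had 50.8 ± 2.30 CPM in Wei and 49.2 ± 0.45 CPM in Yorkshire, and BNIP3, an outer membrane mitophagy receptor, had 235 ± 23.9 CPM in Wei and 221 ± 24.0 CPM in Yorkshire (SD, n = 3 each). Mitochondrial transport had TRAK2 as its 1 call of 6 and a median of -0.07.

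**Figure D5:**
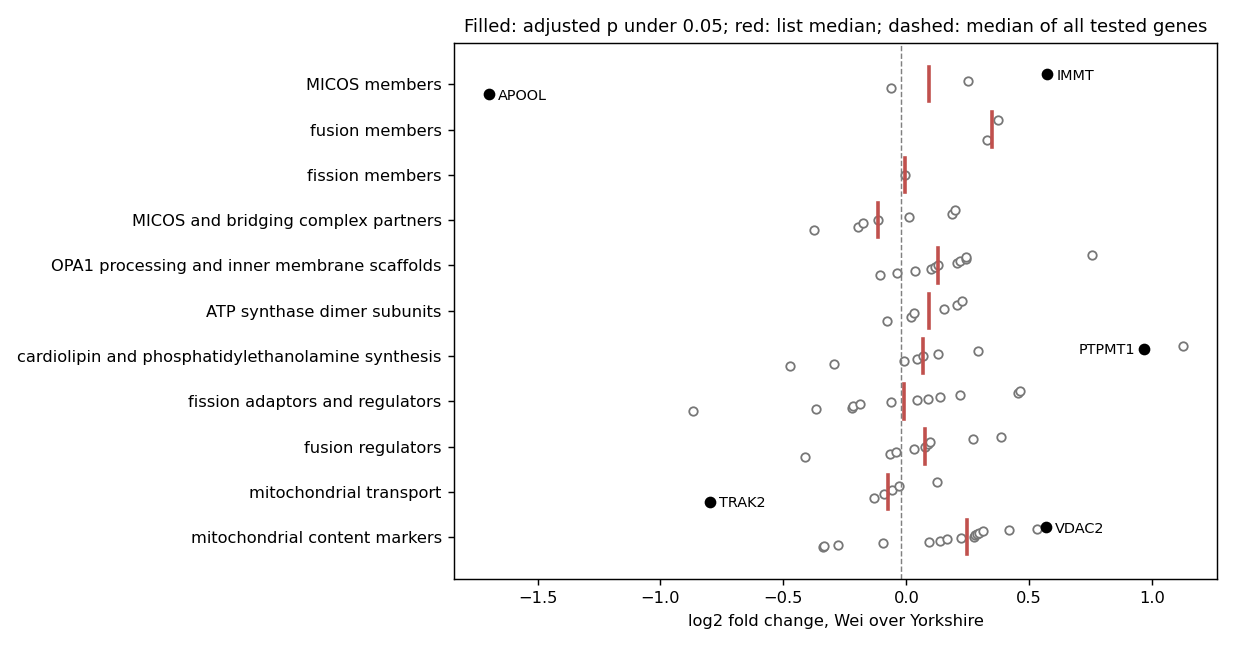
Log2 fold change (Wei over Yorkshire) of each tested gene by list; filled points have an adjusted p under 0.05, red lines are list medians and the dashed line is the median of all tested genes (-0.02). APOOL lies farthest from 0 of the genes shown, at -1.70.

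Of the other cell types, fibroblast and adipocyte markers held edgeR calls and the remaining lists held 0. Over all tested genes edgeR called 5.08%, and 23.3% had an unadjusted p under 0.05. DESeq2 called 713 of the 13209 tested genes higher and 578 lower. Of 8 tested fibroblast markers edgeR called 1 lower in Wei (4 had an unadjusted p under 0.05), DESeq2 called 4 and limma voom 1, and all 8 had negative changes, with summed levels of 566 to 1610 CPM in Wei and 2084 to 3432 CPM in Yorkshire. Summed adipocyte markers were 451 to 477 CPM in Wei and 273 to 325 CPM in Yorkshire, with 1 of 5 tested markers called higher in Wei by edgeR and 1 each by DESeq2 and limma voom. The marker that edgeR called, PLIN4, named after its values were seen, made up most of the sum, at 439 ± 27.1 CPM in Wei and 271 ± 32.6 CPM in Yorkshire (SD, n = 3 each); of the 5 markers 2 had a positive change, and the list median was -0.0092. Summed endothelial markers overlapped, at 168 to 239 CPM in Wei and 211 to 236 CPM in Yorkshire. EdgeR called 0 of 7 tested smooth muscle and pericyte markers, 0 of 4 Schwann cell markers and 0 of 1 red blood cell marker. Of these, 4 of 7, 3 of 4 and 0 of 1 had a positive change. Of 6 lymphocyte and 8 macrophage markers tested edgeR called 0 and 0, with 4 and 2 at an unadjusted p under 0.05 and all changes negative; DESeq2 called 2 and 2 lower and limma voom 0 and 0. In the summed macrophage markers, Yorkshire replicate 3 alone lay above the Wei libraries. The part of the cell types above in the APOOL and IMMT values was not tested.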

How the data were processed

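RNA sequencing libraries of longissimus dorsi muscle were compared between Wei and Yorkshire pigs, 3 each. RNA was extracted, per the labels' protocols, with TRIZOL and made into libraries with an Illumina TruSeq kit. CASAVA 1.7, TopHat2 2.0.9, edgeR and the build Sscrofa10.2 are named in the submitters' processing notes, with no role. How reads were counted, with which annotation release and whether by strand, is not given in the sources used here. A gene that overlaps or closely resembles another may therefore hold reads of both; of the 7 genes, APOO alone overlapped another row, which had 0 counts. The authors deposited raw counts and FPKM values for each gene and library, per the file headers. The FPKM values were used for levels between genes and were also shown by breed. They were used as deposited, and no test between the breeds used them.

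The quasi-likelihood test of edgeR 4.0.16 (R 4.3.3; glmQLFit, glmQLFTest) was fitted to the counts with breed as the sole term, after filterByExpr with a minimum count of 10 and TMM normalization. P-values were adjusted by Benjamini-Hochberg over all tested genes. Fold changes are Wei over Yorkshire, and each SE was taken as the size of the unshrunk log2 fold change divided by the root of its F statistic. CPM values are after TMM scaling. The procedure was tested on simulated data. Every pair of libraries differed beyond sampling noise (lowest chi-square over its degrees of freedom, 26.3). Intervals of shares cover counting error only. Alternatives were RLE scaling, library size alone, other filters, DESeq2 1.42.0, limma voom (limma 3.58.1), leaving out mitochondrial genome genes and ACTA1, an adjusted p under 0.01, the replicate number as a block, leaving out each library and, chosen after seeing the data, summing the APOOL rows.

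The genes, lists and tests were chosen with earlier results of these data known. Named beside the 10 genes were up to 4 called genes per list by adjusted p, or else the 2 with the highest CPM, and the 3 genes most alike in pattern to the most abundant gene of each role. CHM and ZNF711 were named after their values were seen. A gene that this rule took is not reported here. Of 9160 genes without a symbol in the table, 1774 were named by ID. Promoter and protein sequences were not used here. Figures were drawn with matplotlib 3.10.9.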

Additional observations from a re-analysis of the deposited data

How the results depend on the processing

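APOOL was called lower in Wei under every alternative run, with log2 fold changes from -1.75 to -1.65, and with its rows summed. Of the 7 genes, the number called higher in Wei was 0 with library size alone, with an adjusted p under 0.01 and with the replicate block, and 0 to 0 with a library left out, since IMMT then missed the threshold (0.0821 and 0.0604 for library size alone and the block in edgeR's quasi-likelihood adjusted p). Of the 60 other pathway genes, 2 were higher without a count filter, with limma voom and without mitochondrial genome genes and ACTA1, 3 with DESeq2, and 0 at an adjusted p under 0.01 and with the block, where 0 were lower; leaving out a library gave 0 to 1 higher and 0 to 0 lower. Over all genes DESeq2 called 713 higher and 578 lower, an adjusted p under 0.01 left 33 and 19, and leaving out a library gave 37 to 259 higher and 23 to 135 lower, with fewer samples in each fit; the cause of the DESeq2 difference was not tested. Values near 0 changed sign. FIS1 was 0.0037 with RLE scaling, 0.0035 without a filter, 0.0040 with DESeq2 and 4.7e-05 without mitochondrial genome genes and ACTA1, and -0.10 to 0.12 with a library left out; CHCHD3 was -0.11 to 0.020 and ATP5PO -0.063 to 0.14. The replicate numbers were not taken as pairs: the correlations across genes between deviations of libraries with a shared number were 0.14, -0.0066 and 0.022. The block called 258 genes higher and 219 lower in all. The log2 ratios were nearly unchanged without a pseudocount. The order of levels per length was the same with CPM per length. Those lengths were derived from the deposited FPKM, so that agreement was largely built in and is no independent check. The lowest count of a called member in a library was 133.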

Other observations

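The annotation terms of the deposited table give another view of the same functions. The term MICOS complex was attached to 4 tested rows (APOO, CHCHD3, IMMT and the second APOOL row), 1 higher and 1 lower in Wei. Cristae formation held 9 tested genes, of which IMMT was the 1 called, with a median log2 fold change of 0.21. Mitochondrial fusion (13 tested) and mitochondrial fission (14 tested) had medians of 0.09 and 0.09. Mitochondrion organization had 8 of 358 tested genes higher and 8 lower, and mitochondrial inner membrane 8 higher and 3 lower of 218, or 4.47% and 5.05% called, near the 5.08% of all tested genes. These terms were chosen after the values were seen and share genes with the lists above.

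Among 5337 tested genes with a symbol and an average log2 CPM of at least 3, CTSA, a lysosomal protease, and LRRC2 were among those whose pattern over the 6 libraries was most like IMMT, with Pearson r of 0.994 and 0.993 as the measure of likeness. For MFN2 they were ETFDH, an electron carrier of fatty acid oxidation, MGST3 and RNPEPL1 (0.997, 0.990 and 0.989), and for FIS1 they were RABGGTB, IMPA2 and COPZ2 (0.996, 0.981 and 0.976). Of the 5337 candidates, 152 had an r over 0.95 with IMMT, 54 with MFN2 and 9 with FIS1. Breed means were left in, so genes that differ between the breeds in the same direction can reach a high r. With breed means removed, the r of IMMT with OPA1 went from 0.89 to -0.53, and with MFN2 from 0.91 to 0.94. That of APOO with APOOL went from -0.39 to 0.91, and that of CHCHD3 with FIS1 from 0.85 to 0.89. These are some of the pairs among the genes described here, and each r rests on 6 libraries. Shared regulation was not tested.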
